A study of Mus musculus with 6 samples.

Results

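The genes described here are 10 parts of the circadian clock: Per1, Per2, Per3, Cry1, Cry2, Nr1d1, Nr1d2, Clock, Npas2 and Rora. They were chosen by symbol, as every probe set of the Affymetrix Mouse Genome 430A 2.0 array that the platform annotation pairs with one of them and with no other gene. This gave 18 probe sets of 10 genes, out of 20380 probe sets of 12393 genes, with 1 probe set for 4 of the genes, 2 for 4 and 3 for 2. RNA came from whole livers of male wild-type mice of strain C57Bl/6 that had been injected through the jugular vein with recombinant FGF19, with purified FGF15 or with vehicle, and had no food during the 6 h until the livers were frozen. Each of the 3 groups had 2 arrays. The labels give no age of the mice, dose, hour of the day for taking the livers or make-up of the vehicle. FGF19 is the human counterpart of mouse FGF15, so that in the FGF19 group a human hormone acted on mouse liver.

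The clock is a loop of transcription factors that feeds back on itself about once a day. CLOCK, or its relative NPAS2, pairs with BMAL1 (the product of Arntl) on E-box elements and switches on the Per and Cry genes, whose proteins return to the nucleus and block that pair. A further loop runs through response elements shared by the activating receptor RORα (Rora) and the repressors REV-ERBα and REV-ERBβ (Nr1d1 and Nr1d2), and a set of proteins that bind D-box elements, led by DBP, carries the rhythm to other genes. In liver the clock times bile acid, glucose and lipid metabolism and is itself reset by feeding. FGF15 and FGF19 are gut hormones released after a meal that act on hepatocytes through FGFR4 and β-Klotho.

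With FGF19, Rora was 1.88 and 2.34 times as high as with vehicle on its brighter probe sets, and it was also higher than with FGF15. Nr1d2 and 1 of the 3 probe sets of Per3 were lower with FGF19 than with vehicle, but these calls were lost when each array was centred on its median. With FGF15, a single member was called, a rise of Rora on 1 probe set. No probe set of Per1, Per2, Cry1, Cry2, Nr1d1 or Clock passed the test in any comparison, and both probe sets of Npas2 lay under the limit set on low signals.

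Values are signal intensities as deposited, on a linear scale. Differences are of log2(signal + 32), with limma's standard error (SE), and adjusted p-values are Benjamini-Hochberg values from that limma fit over 16969 probe sets. Folds are ratios of signal + 32. A probe set is said to rise or fall at an adjusted p under 0.05. Of the 18 probe sets, 16 passed the filter on low signals. The median signal of the arrays was 50.8 and 52.2 with FGF19, 55.2 and 51.3 with FGF15, and 61.4 and 59.4 with vehicle. FGF19 replicate 1 differed from the other 5 arrays in its controls: 18S rRNA gave a signal of 32.3 against 4.25 to 5.82, and its 3' to 5' ratio of β-actin, which is higher in degraded RNA, was 1.63 against 1.30 to 1.39. Values of the called members without that array are given beside them. Whether each array is a mouse of its own is not stated in the labels, so the p-values rest on a spread between arrays that could be technical.

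The promoters of the called repressors are shown for their clock elements. RefSeq windows of the 250 bases before a start (build GRCm38.p6) were given for 9 of the 10 genes, and Per2 had none. Printed here, 5′ to 3′, are the parts that lie outside the annotated gene for Per3 and Nr1d2, which were lower with FGF19, and for Nr1d1, the close relative of Nr1d2. The window of Rora lies inside the annotated gene and is not printed. Letters searched on both strands were the E-box CACGTG, the E-prime box CACGTT, the core TAGGTCA of the ROR element, the D-box TTATGTAA and the cAMP response element TGACGTCA with its shorter core TGACG, which the full element contains. Matches are in capitals.
Per3, chr4:151044708-151044915, minus strand: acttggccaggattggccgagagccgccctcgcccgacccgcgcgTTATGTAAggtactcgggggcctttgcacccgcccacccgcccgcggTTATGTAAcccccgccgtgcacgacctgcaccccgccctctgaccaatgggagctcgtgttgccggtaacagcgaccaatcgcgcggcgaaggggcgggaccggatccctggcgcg
Nr1d2, chr14:18239107-18239356, minus strand: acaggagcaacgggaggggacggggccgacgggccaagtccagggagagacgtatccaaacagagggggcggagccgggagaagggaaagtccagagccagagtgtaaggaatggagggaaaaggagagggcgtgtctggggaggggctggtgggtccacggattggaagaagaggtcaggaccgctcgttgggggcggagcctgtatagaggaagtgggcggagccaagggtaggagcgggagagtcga
Nr1d1, chr11:98775378-98775627, minus strand: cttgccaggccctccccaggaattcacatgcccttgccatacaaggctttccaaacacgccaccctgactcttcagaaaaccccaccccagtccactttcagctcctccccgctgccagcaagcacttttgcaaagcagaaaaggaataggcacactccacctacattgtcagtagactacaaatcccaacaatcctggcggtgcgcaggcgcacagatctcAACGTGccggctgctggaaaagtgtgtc
Per3 carried the D-box letters at 2 places, 205 to 198 and 158 to 151 bases before its start, and 0.819% of all 32851 windows had them. Nr1d1 had the E-prime letters, read on the opposite strand as AACGTG, 28 to 23 bases before the start, as did 3.85% of windows. None of the searched letters was found in the windows of Nr1d2 or Rora. Cry1 had both an E-box, 60 to 55 bases before the start, and E-prime letters, 79 to 74 bases before it. Per1 had an E-box 166 to 161 bases before the start of one of its windows, and Cry2 had E-prime letters 166 to 161 bases before its start. The letters TGACG, the core of the cAMP response element, stood in both Per1 windows (246 to 242 and 132 to 128 bases before the starts), in Cry1 (8 to 4) and in Cry2 (209 to 205, on the opposite strand). The E-box letters were present in 6.02% of windows and TGACG in 17.8%. A match describes the letters only.

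Rora encodes RORα, the activator that works on the same elements as the REV-ERB repressors. On probe set 1420583_a_at, whose suffix marks a probe set shared by several transcripts of the gene, the signal was 662 and 720.4 with FGF19, 344 and 379 with FGF15, and 275 and 278 with vehicle. The 3 groups did not overlap, and their order was FGF19, FGF15, vehicle. The rise with FGF19 over vehicle was 1.23 ± 0.08 on the log2 scale (SE, n = 2 arrays per group), or 2.34-fold (limma, adjusted p = 1.91e-05). Over FGF15 it was 0.88 ± 0.08, or 1.84-fold (limma, adjusted p = 0.000349).

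The other bright probe set of Rora, 1424034_at, had 519 and 590.3 with FGF19, 334 and 350.3 with FGF15, and 277 and 282 with vehicle. The arrays stood in the same order of groups, again without overlap. The rise with FGF19 was 0.91 ± 0.09 over vehicle, 1.88-fold (limma, adjusted p = 0.000158), and 0.65 ± 0.09 over FGF15, 1.56-fold (limma, adjusted p = 0.00290). The dim probe set 1424035_at had 60.3 and 54.6 with FGF19, 38.1 and 32.9 with FGF15, and 35.8 and 27.0 with vehicle, and its difference of 0.50 ± 0.16 between FGF19 and vehicle did not pass the test (adjusted p = 0.0721). Without FGF19 replicate 1, the rise over vehicle was 1.28 (adjusted p = 0.000328) on 1420583_a_at and 1.00 (adjusted p = 0.000925) on 1424034_at.

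With FGF15 against vehicle, 1420583_a_at was higher by 0.35 ± 0.08, or 1.27-fold (limma, adjusted p = 0.0258). On 1424034_at the difference was 0.27 ± 0.09 (adjusted p = 0.0839) and on 1424035_at 0.09 ± 0.16 (adjusted p = 0.770), so the call rests on 1 probe set of 3. It was lost without FGF15 replicate 2 (adjusted p = 0.144), without vehicle replicate 1 (adjusted p = 0.132) and without vehicle replicate 2 (adjusted p = 0.110).

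**Figure D1:**
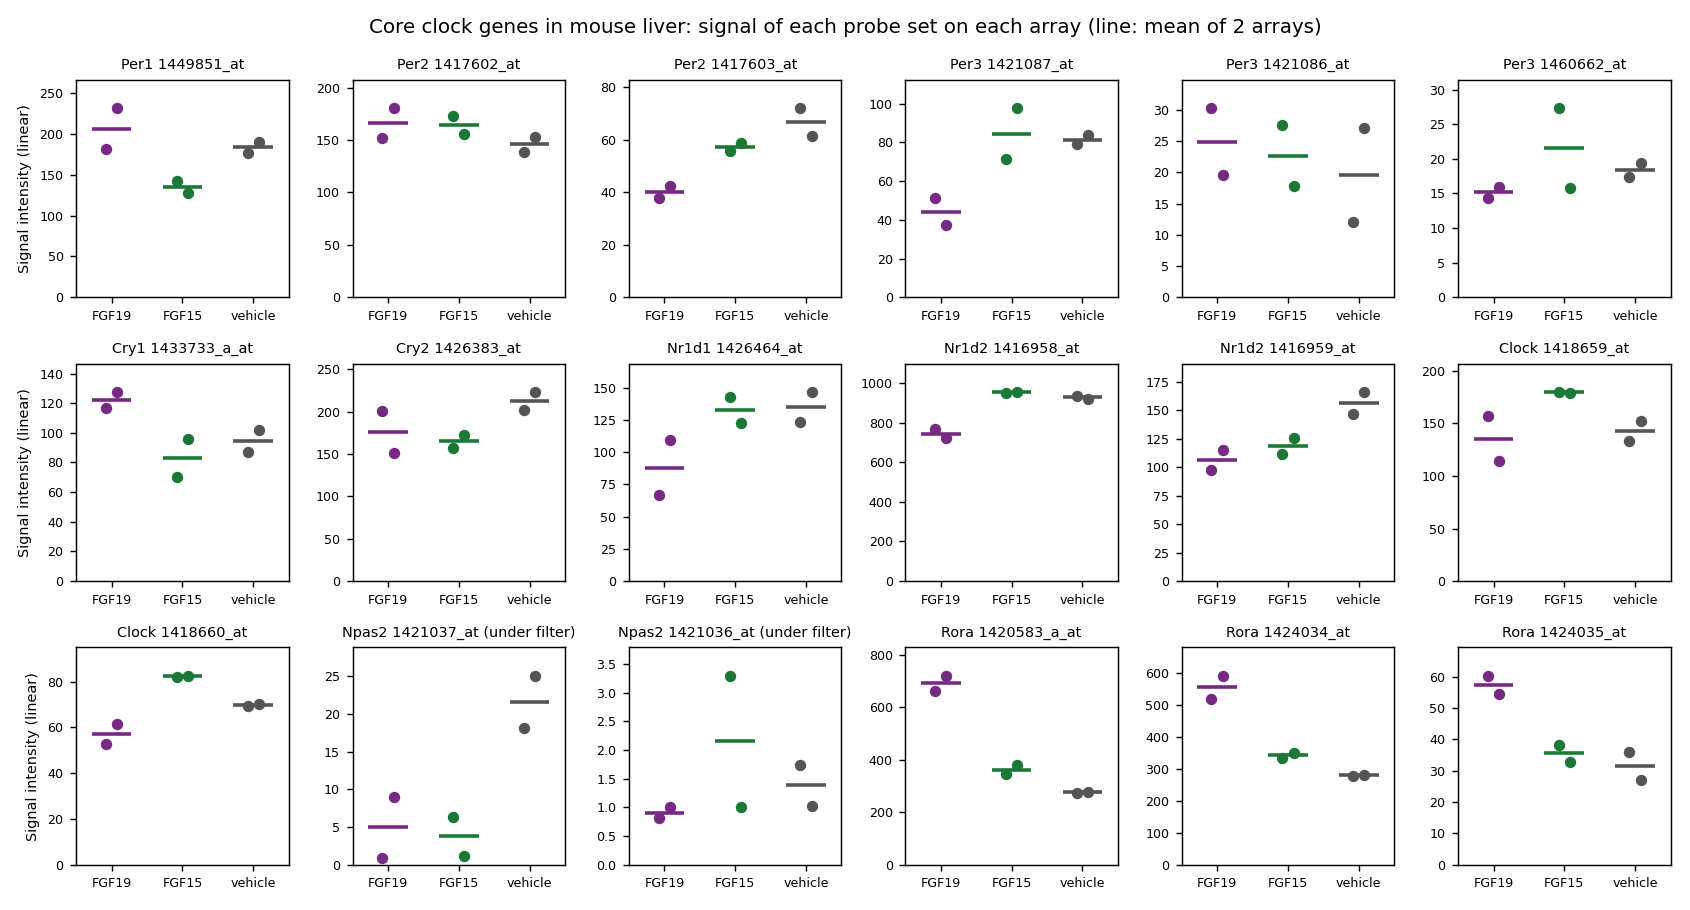
Signal intensity on a linear scale that starts at 0 (y axis) for each of the 18 probe sets, by group (x axis). Each point is 1 array and each line the mean of 2 arrays; on Rora 1420583_a_at and 1424034_at both FGF19 arrays lie above all others, and both Npas2 probe sets stay close to 0 or under 26.

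Nr1d2 encodes REV-ERBβ, a repressor. Its brighter probe set, 1416958_at, had 767 and 723 with FGF19, 953 and 956 with FGF15, and 938 and 919 with vehicle. Both FGF19 arrays lay below all others, while the FGF15 and vehicle arrays were close. The fall with FGF19 was -0.31 ± 0.07 against vehicle, 1.24-fold lower (limma, adjusted p = 0.0183), and -0.35 ± 0.07 against FGF15, 1.27-fold lower (limma, adjusted p = 0.0211). With FGF15 against vehicle the difference was 0.04 ± 0.07, with a 95% interval of -0.11 to 0.19.

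The other probe set of Nr1d2, 1416959_at, had 97.3 and 115 with FGF19, 111 and 125 with FGF15, and 146 and 166 with vehicle. Here both hormone groups lay under vehicle and overlapped with each other. The fall with FGF19 was -0.45 ± 0.12, 1.36-fold lower (limma, adjusted p = 0.0427), and the difference with FGF15 was -0.32 ± 0.12 (adjusted p = 0.132). The probe sets of Nr1d2 thus placed the FGF15 arrays differently, level with vehicle on one and nearer to FGF19 on the other.

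These falls were smaller than the rise of Rora and less firm. Without FGF19 replicate 1, that on 1416958_at was -0.35 (adjusted p = 0.0313) against vehicle, and that on 1416959_at was -0.35 (adjusted p = 0.216). The call on 1416958_at against vehicle was lost without FGF19 replicate 2 (adjusted p = 0.0701), without vehicle replicate 1 (adjusted p = 0.129) or without vehicle replicate 2 (adjusted p = 0.0893), and that against FGF15 with each array left out (adjusted p = 0.0548 to 0.108) except FGF19 replicate 1 (adjusted p = 0.0447). The call on 1416959_at was also lost without FGF19 replicate 2 (adjusted p = 0.0654), without vehicle replicate 1 (adjusted p = 0.0992) and without vehicle replicate 2 (adjusted p = 0.203). Centring each array on its median made the difference on 1416958_at against vehicle -0.16 (adjusted p = 0.242).

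Nr1d1, which encodes REV-ERBα, had 66.7 and 109 with FGF19, 143 and 123 with FGF15, and 123 and 147 with vehicle on its probe set 1426464_at. Both FGF19 arrays were the lowest, but they differed from each other by more than the arrays of any other group. The difference with FGF19 was -0.50 ± 0.17 against vehicle (limma, adjusted p = 0.0926) and -0.48 ± 0.17 against FGF15 (adjusted p = 0.201). It passed the test without FGF19 replicate 2, the higher of the pair (-0.75, adjusted p = 0.0258), and was -0.24 (adjusted p = 0.447) without FGF19 replicate 1. With FGF15 it was -0.02 ± 0.17 against vehicle, with an interval of -0.40 to 0.36.

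Among the Per genes, which encode the period proteins that restrain CLOCK and BMAL1, Per3 gave the only call. Probe set 1421087_at had 51.2 and 37.3 with FGF19, 71.3 and 97.7 with FGF15, and 79.0 and 83.6 with vehicle. Both FGF19 arrays were below all others, and the FGF15 arrays lay on either side of vehicle. The fall with FGF19 was -0.58 ± 0.16 against vehicle, 1.49-fold lower (limma, adjusted p = 0.0463), and the difference from FGF15 was -0.61 ± 0.16 (adjusted p = 0.0808).

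The other probe sets of Per3 did not show it. Probe set 1421086_at ranged from 12.0 to 30.3 over the 6 arrays and 1460662_at from 14.4 to 27.3, near the limit of the filter (a signal of 14.0), and their differences with FGF19 were 0.15 ± 0.21 (adjusted p = 0.693) and -0.10 ± 0.19 (adjusted p = 0.782). The fall on 1421087_at was -0.71 (adjusted p = 0.0731) without FGF19 replicate 1, -0.44 (adjusted p = 0.217) without FGF19 replicate 2, -0.61 (adjusted p = 0.150) without vehicle replicate 1 and -0.55 (adjusted p = 0.170) without vehicle replicate 2. With the mean of the 3 probe sets in their place it was -0.17 (adjusted p = 0.480).

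Per1, the family member known for quick induction by hormones and cAMP, had 182 and 232 with FGF19, 143 and 128 with FGF15, and 177 and 191 with vehicle on 1449851_at. The FGF15 arrays were the lowest. The difference was 0.51 ± 0.12 between FGF19 and FGF15 (limma, adjusted p = 0.0563), -0.37 ± 0.12 between FGF15 and vehicle (adjusted p = 0.0890) and 0.14 ± 0.12 between FGF19 and vehicle (adjusted p = 0.509). None passed the test, and the first did so in 6 of 21 alternative settings.

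For Per2 the probe sets differed. On 1417602_at the signal was 152 and 180.5 with FGF19, 173 and 156 with FGF15, and 139 and 153 with vehicle, and the difference with FGF19 was 0.15 ± 0.11 against vehicle, with an interval of -0.10 to 0.41. On 1417603_at it was 37.9 and 42.5 with FGF19, 55.7 and 58.5 with FGF15, and 72.0 and 61.6 with vehicle, where the difference with FGF19 was -0.45 ± 0.14 (limma, adjusted p = 0.0725). The groups of 1417603_at did not overlap, whereas those of 1417602_at did for FGF19 and vehicle.

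The cryptochromes bind the period proteins and do most of the repressing. Cry1 (1433733_a_at) had 117 and 128 with FGF19, 70.2 and 95.5 with FGF15, and 87.0 and 102 with vehicle. Its FGF19 arrays were the highest, with a difference of 0.29 ± 0.14 against vehicle (limma, adjusted p = 0.231) and of 0.43 ± 0.14 against FGF15 (adjusted p = 0.164). Cry2 (1426383_at) had 201 and 151 with FGF19, 158 and 172 with FGF15, and 202 and 223 with vehicle. All 4 hormone arrays lay below vehicle, by -0.24 ± 0.13 with FGF19 (adjusted p = 0.253) and by -0.31 ± 0.13 with FGF15 (adjusted p = 0.158).

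Of the activators, Clock had 157 and 114 with FGF19, 180.0 and 179 with FGF15, and 133 and 152 with vehicle on 1418659_at. Its other probe set, 1418660_at, had 52.7 and 61.6 with FGF19, 82.0 and 82.6 with FGF15, and 69.4 and 70.3 with vehicle. On both, the FGF15 arrays were the highest, and the difference between FGF19 and FGF15 was -0.35 ± 0.13 (limma, adjusted p = 0.245) and -0.36 ± 0.13 (adjusted p = 0.216), neither of them a call. Against vehicle, the differences of Clock ran from -0.19 to 0.28.

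Npas2, which can stand in for CLOCK, was too dim to enter the fit. Probe set 1421037_at read 0.958 and 8.97 with FGF19, 6.37 and 1.17 with FGF15, and 18.1 and 25.03 with vehicle, and 1421036_at read 0.808 to 3.29 over all 6 arrays. Only the vehicle arrays of 1421037_at lay above the signal of 14.0 that served as the limit. In a fit of all 22626 probe sets without that limit, its difference was -0.54 ± 0.15 with FGF19 (limma, adjusted p = 0.0926) and -0.58 ± 0.15 with FGF15 (adjusted p = 0.0765) against vehicle.

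**Figure D2:**
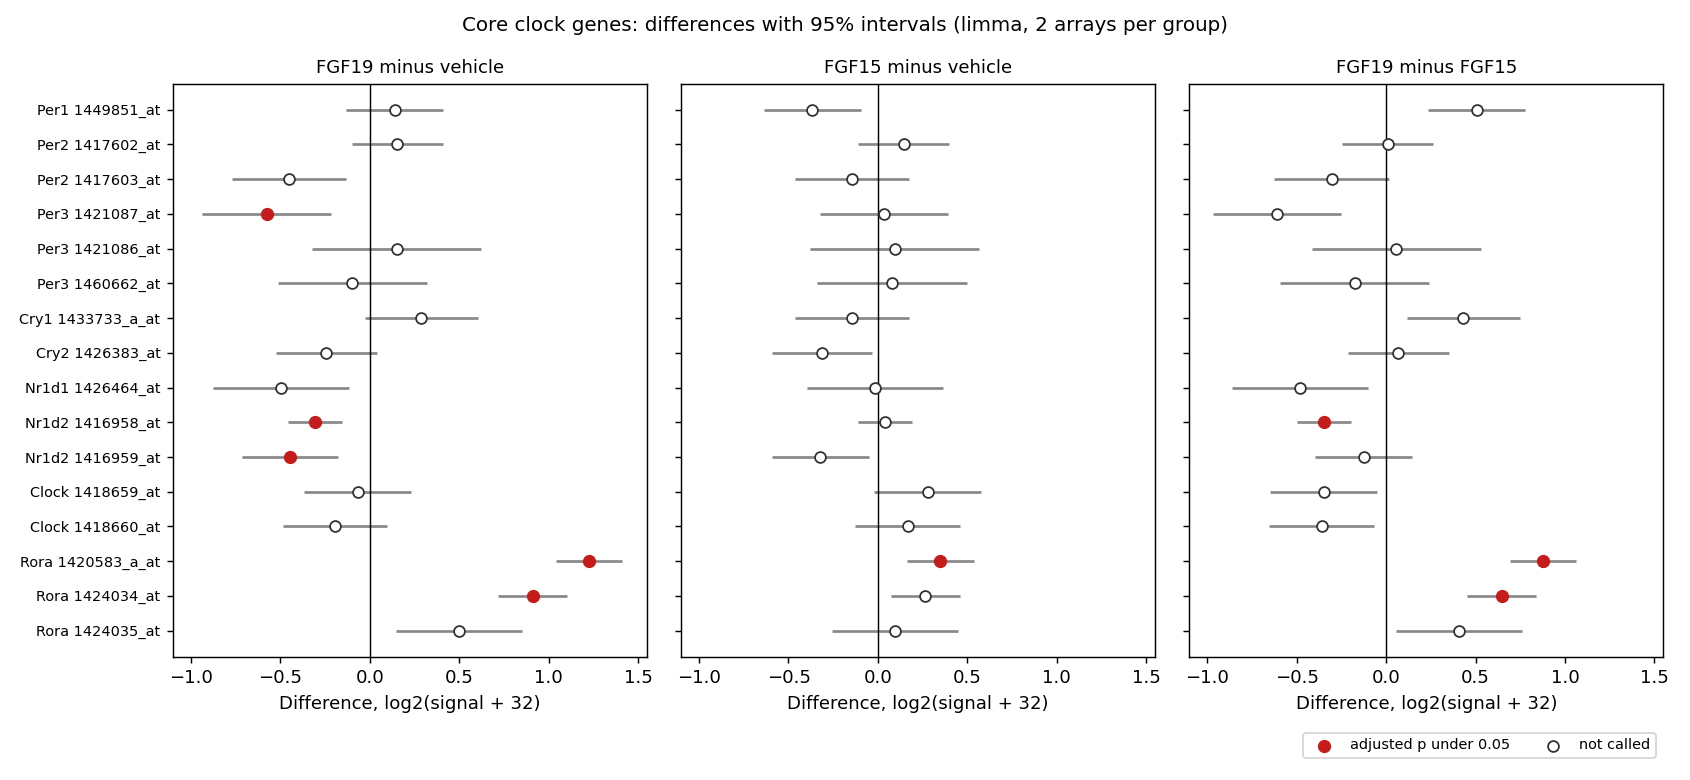
Difference of log2(signal + 32) (x axis) with its 95% interval for the 16 probe sets tested (y axis), in 3 panels for FGF19 minus vehicle, FGF15 minus vehicle and FGF19 minus FGF15. Filled points had an adjusted p under 0.05: 5 with FGF19 and 1 with FGF15 against vehicle, and 3 between the hormones.

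Counted together, FGF19 against vehicle had 2 of 16 probe sets called higher, both of Rora, and 3 called lower, 2 of Nr1d2 and 1 of Per3. Of all 16969 probe sets tested, 5.15% were called higher and 6.34% lower in that comparison. FGF15 against vehicle had 1 called higher and 0 called lower by limma, against 4.73% higher and 5.81% lower of all probe sets. At an unadjusted p under 0.05, 2 were higher and 3 lower with FGF15, where 10.1% and 14.5% of all probe sets were. At that level, 3 were higher and 5 lower with FGF19 against vehicle (10.1% and 16.4% of all). Between FGF19 and FGF15, 2 were called higher, both of Rora, and 1 lower, of Nr1d2, against 1.97% and 1.34% of all probe sets. At an unadjusted p under 0.05, 5 were higher and 5 lower between the hormones (7.11% and 8.30% of all). With counts this small, and several probe sets to a gene, the shares of called members are not set apart from these backgrounds by any test here.

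The median difference of the members was -0.08 with FGF19 and 0.06 with FGF15 against vehicle, and -0.06 between the hormones, and the medians over all probe sets tested were -0.07, -0.05 and -0.02. As the comparisons with vehicle share the vehicle arrays, the values of the hormones are given side by side only.

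Since the medians of the arrays differed, the scale matters for small differences. Centring each array on its median would add 0.15 to each difference between FGF19 and vehicle, 0.12 to each between FGF15 and vehicle and 0.03 to each between the hormones. On that scale, Rora was higher with FGF19 than with vehicle by 1.37 (1420583_a_at), 1.06 (1424034_at) and 0.65 (1424035_at, adjusted p = 0.0186), so that all 3 of its probe sets passed the test. None of the falls did: Nr1d2 differed by -0.16 (adjusted p = 0.242) and -0.30 (adjusted p = 0.156), and Per3 by -0.43 (adjusted p = 0.116). The share of higher among all called probe sets moved under this scale to 78.2% with FGF19, against 44.8% as deposited, and to 72.1% with FGF15, against 44.9%.

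**Figure D3:**
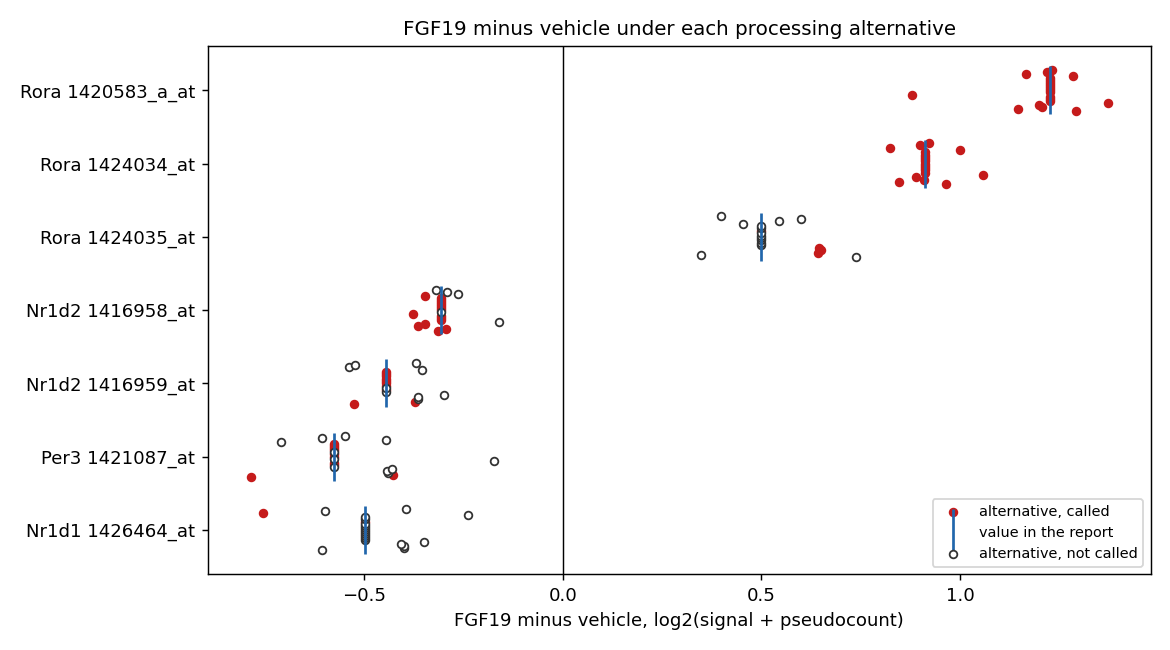
FGF19 minus vehicle on the log2 scale (x axis) for 7 probe sets of Rora, Nr1d2, Per3 and Nr1d1 (y axis) under each alternative setting that gave a value; filled points were called, open points were not, and the blue bar is the value reported. Rora 1420583_a_at stays between 0.88 and 1.37 and is called throughout, while Nr1d2 and Per3 lose their call in several settings.

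Direct targets and partners of the members followed, from lists of clock genes that each used the brightest probe set of a gene. Other probe sets are given for Dbp, Usp2, Hlf and Tef only. Those of Csnk1a1, Nampt, Ppargc1a, Nr3c1, Tsc22d3 and Crem are not described, so the calls given for these genes rest on 1 probe set each. Of the 5 output genes, FGF19 against vehicle had 1 higher (Nfil3) and 2 lower (Dbp and Usp2), FGF15 against vehicle had 2 lower (Usp2 and Hlf), and FGF19 against FGF15 had 1 higher (Nfil3) and 2 lower (Dbp and Usp2). Dbp, an activator on D-boxes whose transcription is driven by CLOCK and BMAL1, had 224 and 202 with FGF19, 624 and 643 with FGF15, and 702 and 657 with vehicle on 1438211_s_at. Its FGF19 arrays were far below the others, 2.90-fold under vehicle (-1.54 ± 0.08; limma, adjusted p = 3.66e-06) and 2.72-fold under FGF15 (-1.44 ± 0.08; adjusted p = 1.24e-05). The suffix _s_at marks probe sets that can bind related transcripts, but 1418174_at of Dbp, without it, gave -1.46 ± 0.10 (adjusted p = 2.56e-05) against vehicle and -1.39 ± 0.10 (adjusted p = 8.11e-05) against FGF15.

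Usp2, a deubiquitinase expressed with strong daily rhythm in liver, had 104 and 110.1 with FGF19, 206 and 213 with FGF15, and 422 and 381 with vehicle on 1417168_a_at. For Dbp the difference of FGF15 from vehicle was -0.10 ± 0.08 (limma, adjusted p = 0.517), not a call. Usp2 was called lower with both hormones, 3.12-fold with FGF19 (-1.64 ± 0.09, limma, adjusted p = 5.67e-06) and 1.79-fold with FGF15 (-0.84 ± 0.09, adjusted p = 0.000457). It was also lower with FGF19 than with FGF15 (-0.80 ± 0.09, adjusted p = 0.00133). Its probe set 1417169_at was called lower with FGF19 (-1.44 ± 0.13; adjusted p = 9.53e-05) and with FGF15 (-0.98 ± 0.13; adjusted p = 0.00104) but not between the hormones (-0.45 ± 0.13; adjusted p = 0.0951). Nfil3, a repressor on D-boxes and so an opponent of DBP, had 647 and 611 with FGF19, 404 and 401 with FGF15, and 295 and 368 with vehicle. It rose with FGF19, 1.83-fold over vehicle (0.87 ± 0.10; limma, adjusted p = 0.000528) and 1.52-fold over FGF15 (0.61 ± 0.10; adjusted p = 0.00829). The call against FGF15 was lost without FGF15 replicate 1 (adjusted p = 0.0523), FGF15 replicate 2 (adjusted p = 0.0520) or FGF19 replicate 1 (adjusted p = 0.0799).

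Hlf and Tef are relatives of Dbp. Hlf (1434736_at) had 160.0 and 182 with FGF19, 148 and 166 with FGF15, and 216 and 212 with vehicle. All 4 hormone arrays were below vehicle, and the fall passed the test with FGF15 (-0.38 ± 0.10; limma, adjusted p = 0.0445) but not with FGF19 (-0.28 ± 0.10; adjusted p = 0.113), a difference between hormones of 0.10 ± 0.10 that did not pass either (adjusted p = 0.718). The call with FGF15 held with none of the 6 arrays left out in turn (adjusted p = 0.0514 to 0.188). On the other probe set of Hlf, 1434735_at, the difference with FGF15 was -0.19 ± 0.17 (adjusted p = 0.554). Tef (1424175_at) differed by -0.21 ± 0.07 with FGF19 (adjusted p = 0.0933), and its dimmer probe set 1438033_at was called lower (-0.51 ± 0.13; adjusted p = 0.0296). A further tested probe set of Tef, 1450184_s_at, is not described here.

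Of 6 further core clock genes with a probe set, 3 passed the filter, and 1 of these, Bhlhe40, was called, with FGF19 against vehicle. Bhlhe40, which encodes the repressor DEC1, had 578 and 569 with FGF19, 413 and 494 with FGF15, and 424 and 403 with vehicle. It was 1.36-fold higher with FGF19 than with vehicle (0.44 ± 0.09; limma, adjusted p = 0.0129), a call that was lost without any 1 array of these groups (adjusted p = 0.0529 to 0.0893). Arntl, which encodes BMAL1, had 63.7 and 47.0 with FGF19, 74.8 and 35.9 with FGF15, and 55.8 and 33.7 with vehicle, and its groups overlapped in all comparisons. Its SE of 0.23 was larger than that of any member, and the difference with FGF19 was 0.20 (adjusted p = 0.639). Timeless differed by -0.01 ± 0.18 with FGF19 and by -0.39 ± 0.18 with FGF15 (adjusted p = 0.224). Arntl2, Rorb and Bhlhe41 lay under the filter.

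**Figure D4:**
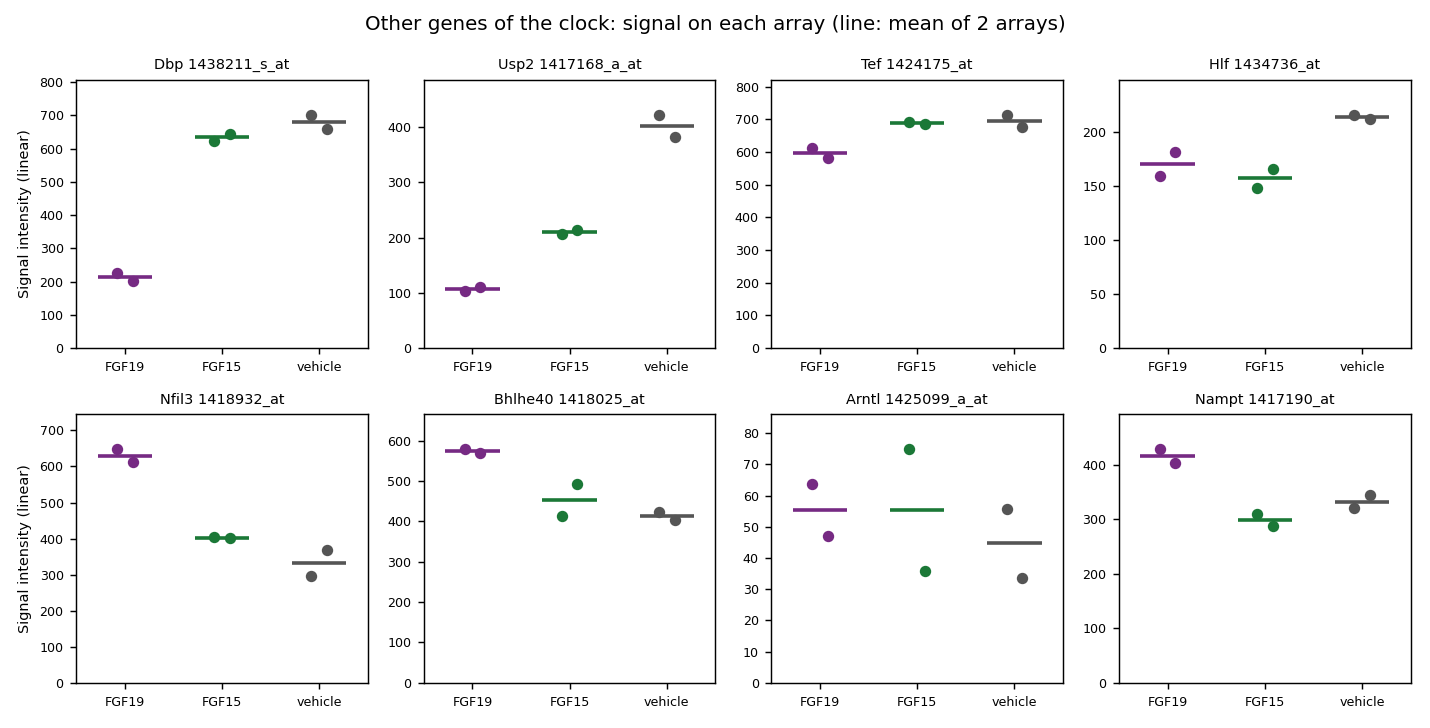
Signal intensity on a linear scale that starts at 0 (y axis) of 8 other genes of the clock, by group (x axis); points are arrays and lines the mean of 2 arrays. Dbp and Usp2 are lowest and Nfil3, Bhlhe40 and Nampt highest on the FGF19 arrays, and the Arntl groups overlap.

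Among enzymes that modify or support clock proteins, 11 of 16 genes were tested, of which 1 was lower with FGF19 than with vehicle and 1 was higher with FGF19 than with FGF15. The lower one was Csnk1a1, a casein kinase, at 717 and 663 with FGF19, 826 and 858 with FGF15, and 816 and 854 with vehicle (-0.26 ± 0.07 against vehicle; limma, adjusted p = 0.0440), and it was not called with any array left out (adjusted p = 0.0563 to 0.210). The higher one was Nampt, the enzyme that makes NAD for the deacetylase SIRT1, at 428 and 402 with FGF19, 309 and 288 with FGF15, and 320 and 345 with vehicle. Its difference of FGF19 from FGF15 was 0.44 ± 0.08 (limma, adjusted p = 0.0202), lost without any 1 array of these groups (adjusted p = 0.0574 to 0.148), and that from vehicle was 0.29 ± 0.08 (adjusted p = 0.0517). Csnk1d differed by -0.60 ± 0.21 (adjusted p = 0.0993) and Csnk2a1 by -0.28 ± 0.11 (adjusted p = 0.129) with FGF19 against vehicle.

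Genes linked to the cAMP, glucocorticoid and other signals that reach the Per promoters were the last list, with 11 of 13 tested. It mixed carriers of these signals with genes that they induce, such as Sgk1 and Tsc22d3. There, 2 were called higher and 2 lower with FGF19 against vehicle, 1 higher and 2 lower with FGF15, and 2 higher with FGF19 than with FGF15. The lower ones with FGF19 were Ppargc1a and Nr3c1, the gene of the glucocorticoid receptor (-0.33 ± 0.09, limma, adjusted p = 0.0456). The call of Nr3c1 was not examined with any array left out or under the other settings. Centring each array on its median would make this difference smaller. Fkbp5, another gene that glucocorticoids induce, differed by -0.06 ± 0.07 with FGF19 (adjusted p = 0.634). Ppargc1a, a coactivator of RORα, had 111 and 131 with FGF19, 31.0 and 29.7 with FGF15, and 204 and 198 with vehicle. It was lower with both hormones, and the fall with FGF15 (-1.90 ± 0.12; limma, adjusted p = 1.22e-05) was larger than that with FGF19 (-0.61 ± 0.12; adjusted p = 0.0108), with a difference between hormones of 1.29 ± 0.12 (adjusted p = 0.000338). The order of groups of Ppargc1a was thus vehicle, FGF19, FGF15, and that of Rora FGF19, FGF15, vehicle. The call of Ppargc1a with FGF19 was lost without FGF19 replicate 1 (adjusted p = 0.0853), vehicle replicate 1 (adjusted p = 0.0834) or vehicle replicate 2 (adjusted p = 0.0646).

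Sgk1, a kinase gene that glucocorticoids induce, had 524 and 502 with FGF19, 190.1 and 218 with FGF15, and 248 and 287 with vehicle. It was higher with FGF19 than with vehicle (0.86 ± 0.10; limma, adjusted p = 0.000523) and than with FGF15 (1.21 ± 0.10; adjusted p = 0.000149). Tsc22d3, also induced by glucocorticoids, had 532 and 527 with FGF19, 409 and 436 with FGF15, and 554 and 543 with vehicle, and it fell with FGF15 (-0.35 ± 0.07; limma, adjusted p = 0.0136). With FGF19 its difference from vehicle was -0.05 ± 0.07, and that between the hormones, 0.31 ± 0.07, did not pass the test (adjusted p = 0.0564). The fall was lost without FGF15 replicate 1 (adjusted p = 0.0731), vehicle replicate 1 (adjusted p = 0.102) or vehicle replicate 2 (adjusted p = 0.0749). Crem, a cAMP-responsive factor, rose with FGF19 (0.61 ± 0.09; limma, adjusted p = 0.00181) and with FGF15 (0.39 ± 0.09; adjusted p = 0.0177) over vehicle, where the call with FGF15 was lost without any 1 array of these groups (adjusted p = 0.0581 to 0.128). Per1, a target of these signals, was called in none of the comparisons.

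Genes with the most similar course over the 6 arrays were found for the called members, by the Euclidean distance of log2 values centred on their mean. Nearest to Rora were Gadd45a (distance 0.141), Sgms1 (0.184) and Trib1 (0.209). Gadd45a, a stress-induced gene, had 135 and 138 with FGF19, 62.0 and 67.5 with FGF15, and 37.0 and 39.2 with vehicle. Nearest to Nr1d2 were Malat1 (0.0593), Cxcl12 (0.0602) and Gbf1 (0.0767, an _s_at probe set), and nearest to Per3 were Inpp5k (0.147), Myorg (0.164) and Grb7 (0.176). Of these, Grb7 had 193 and 153 with FGF19, 283 and 308 with FGF15, and 262 and 288 with vehicle. The likeness of these genes to the members follows from the way they were picked.

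The livers were checked for the cells they held. The summed signal of the 6 measured hepatocyte markers was 41695 and 54403 with FGF19, 50132 and 54383 with FGF15, and 59627 and 58922 with vehicle, and limma called none in any comparison, while 5 of them had an unadjusted p under 0.05 with FGF19 against vehicle. Markers of Kupffer cells, which are liver macrophages, moved with the groups: of 11 tested from a list of 12, 9 were lower with FGF19 and 10 with FGF15 against vehicle, and their summed signal was 3499 to 3534 with FGF19, 3484 to 3608 with FGF15 and 6427 to 6525 with vehicle. None of them was at 0: the lowest mean of a group was 31.2, of Marco with FGF15. Between FGF19 and FGF15, where Rora and Nr1d2 differed, 2 Kupffer markers, Marco and Mpeg1, were called higher. At an unadjusted p under 0.05 by limma there were 5 of 11, and the others, Clec4f (-0.21), Vsig4 (-0.28) and C1qc (-0.24), were lower with FGF19. Of 4 neutrophil markers tested from a list of 6, 1 was lower with FGF19 and 3 with FGF15 against vehicle, and 2 were higher with FGF19 than with FGF15, at summed signals of 447 to 498 with FGF19, 269 to 273 with FGF15 and 564 to 565 with vehicle. Of 8 stellate cell markers 3 were lower with each hormone against vehicle and 1 lower with FGF19 than with FGF15, of 10 endothelial markers 1 was lower with FGF15 and 1 higher with FGF19 than with FGF15, and limma called no marker of bile duct cells (3 tested) or lymphocytes (5 tested), nor did any have an unadjusted p under 0.05. The part of these cells in the differences of the clock genes was not tested, and in RNA of whole liver fewer cells of a type and less RNA per cell cannot be told apart.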

How the data were processed

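Expression was measured in whole liver on 6 single-colour arrays, 2 per group, grouped by their titles. Per the values themselves, the deposited signal intensities are linear and had been scaled by the authors to one trimmed mean of about 200.1 per array. The summarising software and detection calls were not given in these sources, and the number of arrays limits the precision.

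Probe sets were named through the platform annotation and Entrez identifiers: 20380 with 1 gene, 691 with several and 1555 with none listed, besides 64 controls. Intensities were taken as log2(signal + 32), so that folds understate the change in signal, most of all for dim genes. Probe sets whose mean log2 value was under the 25th percentile, a signal of about 14.0, were left out. Differences came from limma 3.58.1 in R 4.3.3 (lmFit, eBayes with an intensity trend), in 1 model of all arrays with 3 residual and 6.70 prior degrees of freedom, two-sided, with Benjamini-Hochberg adjustment over 16969 probe sets. The median SE of a difference was 0.14. The steps were tested on simulated data.

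All member probe sets are described. Up to 4 genes of each further list with the smallest p against vehicle were named by rule. All tested core clock genes and the 3 nearest patterns of called members are named as well. Tef was added after its values were seen, and Nr3c1 and Fkbp5 are also named outside this rule. Members and lists were chosen with earlier results of these data known. There were 21 alternatives (pseudocount, scaling, filter, probe sets of a gene, variance prior, arrays in the fit, replicate block, array weights, threshold, each array left out). Plots used matplotlib 3.10.9 (Python 3.11.15).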

Additional observations from a re-analysis of the deposited data

Results flagged for a closer look

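Of the member probe sets, 3 differed between the hormones by the test of FGF19 against FGF15 itself. Rora was higher with FGF19 by 0.88 on the log2 scale on probe set 1420583_a_at (limma, adjusted p = 0.000349) and by 0.65 on 1424034_at (adjusted p = 0.00290). Both calls held in every alternative setting that gave a value, 21 of 21 and 19 of 19. Nr1d2 was lower with FGF19 by -0.35 on 1416958_at (limma, adjusted p = 0.0211), a call that held in 12 of 21 settings and in 1 of the 6 that left out an array, with adjusted p from 0.0447 to 0.108 over those 6. The other probe set of Nr1d2, 1416959_at, differed between the hormones by -0.12 (adjusted p = 0.697), and the third of Rora, 1424035_at, by 0.41 (adjusted p = 0.249). With 2 arrays per group, single arrays standing apart within a group were not tested for.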

How the results depend on the processing

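The calls of Rora with FGF19, against vehicle and against FGF15, held in all settings on 1420583_a_at (21) and 1424034_at (19). The other counts of called members were small and moved. With FGF15 against vehicle, the count called higher was 1 and became 2 with centred medians, 0 with the mean of the probe sets of a gene, 0 without the intensity trend, 2 at a threshold of 0.10, and 0 to 1 with an array left out; the count called lower was 0 and became 1 at a threshold of 0.10. With FGF19 against vehicle, the count called higher was 2 and became 1 both with 1 probe set a gene and with their mean, which leave 1 probe set for Rora, and 3 with quantile normalization, cyclic loess, centred medians and a threshold of 0.10, all by the third probe set of Rora. The count called lower was 3 and became 1 with quantile normalization, 1 with cyclic loess, 0 with centred medians, 1 with no filter, 1 with the mean of the probe sets, 0 without the trend, 5 at a threshold of 0.10, and 0 to 3 with an array left out. Between FGF19 and FGF15, the count called higher was 2 and became 3 with centred medians, a stricter filter, a threshold of 0.10 and without FGF19 replicate 1, all by Per1, while the count called lower was 1 and became 0 with centred medians, with the mean of the probe sets, without the trend and with only the arrays compared, 2 at a threshold of 0.10, and 0 to 1 with an array left out. Where an array is left out, the lone array of its group is assumed to vary like the others. Except where fewer probe sets or arrays entered, the cause of these changes was not tested. No called value changed sign. Over all probe sets tested, same-numbered arrays did not deviate together (r = 0.06 for FGF15 and FGF19, 0.08 for FGF15 and vehicle, -0.03 for FGF19 and vehicle). With 2 arrays per group, this cannot show whether arrays of the same number shared a step of the work. With the replicate number as a block, Per3 with FGF19 was -0.58 (limma, adjusted p = 0.0535), and no other call of a member changed. The share of all probe sets called higher and lower with FGF19 against vehicle (5.15% and 6.34%) became 10.7% and 2.99% with centred medians, 2.89% and 3.10% with no filter, 2.14% and 3.23% without the trend, and 2.25% and 2.20% without vehicle replicate 1. With FGF15 against vehicle (4.73% and 5.81%) it became 8.70% and 3.36%, 2.81% and 3.02%, 1.91% and 3.18%, and 2.06% and 2.32% in the same settings. Dim probe sets such as those of Npas2 limit what can be seen.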
